A study of Mus musculus with 17 samples.

Results

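The comparison described here set 4 mice given the Malat1 antisense oligonucleotide on its own (label Malat1 ASO) against 4 mice given saline, 8 of the 17 samples of the series. The members were taken by their treatment label, and each of the 4 deposited batches held 1 mouse of either group. Every mouse of both groups, controls included, carried the human transferrin receptor knock-in of the Human TfR knock-in strain in homozygous form (hTfR KI HOM), was labelled female and was 2.3 months old. Treatment was by vein once a week for 4 doses, over 24 days in all, with the posterior brain taken 72 hours after the last dose, snap frozen and sorted as DAPI-stained nuclei for 10x single-nucleus RNA sequencing. The labelled dose of the free oligonucleotide was 2 mg/kg, given in the series' design as equivalent in oligonucleotide to the conjugates. The saline label carries the figure of the conjugates, 50 mg/kg. The other 9 mice of the series received the oligonucleotide on a transferrin receptor binder, as anti-TfR:Malat1 (6 mice) or OTV:Malat1 (3 mice). No sequence or chemistry of the oligonucleotide is in the sources used here.

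The Malat1 transcript codes for no protein, remains inside the nucleus, gathers at nuclear speckles next to the splicing machinery and is among the most abundant transcripts of almost every cell, so that single-nucleus counts measure it directly. Antisense oligonucleotides of the RNase H type pair with such an RNA in the nucleus and lead to its cleavage. Given by vein without a carrier, they are taken up mostly by liver and kidney, and the tight endothelium of brain capillaries, the blood-brain barrier, lets little of them into brain tissue. Malat1 lies on the minus strand of mouse chromosome 19, from 5795690 to 5802672 of GRCm38, and is annotated there as a lincRNA (GENCODE M21).

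The 8 libraries held 15098 to 17656 nuclei each, 130766 in all, and 55833121 to 72127059 unique molecular identifiers (UMIs, counted RNA molecules). Any 2 of the libraries shared 50 to 100 cell barcodes. The deposited labels named 6 cell types with at least 20 nuclei in every mouse, and each carried its own markers. The 5 neuron markers summed to 13440 to 14349 counts per 1000000 UMIs (CPM) in neurons, and the 5 microglial markers to 4468 to 5106 CPM in microglia against 66.9 to 85.0 CPM in neurons. The 7 endothelial markers summed to 1011 to 5486 CPM in the vascular label and to 4.63 to 6.77 CPM in neurons. A further label, Glia, held 115 nuclei and was not fitted. Nuclei that the authors had called doublets made up 13.7% to 18.3% of the saline libraries and 14.4% to 20.03% of the Malat1 ASO libraries, the higher of the pair in the Malat1 ASO mouse of all 4 batches. Fewer nuclei of a type and less RNA per nucleus cannot be told apart in values summed over all nuclei.

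Some libraries stood apart. In Malat1 ASO replicate 1, labelled female, Xist, the RNA that coats the silenced X chromosome of female cells, was counted 35 times, or 0.589 CPM, against 913 to 1301 CPM in the other 16 mice. Tsix, its antisense partner, was at 1.14 CPM there against 49.3 to 98.9 CPM. Kdm6a and Kdm5c, which escape silencing of the X, stood at 0.673 and 0.676 of the median of the other 16 mice. Of 4 Y-linked genes, Ddx3y and Eif2s3y were at 0 CPM in that mouse, and Uty and Kdm5d were counted 8 and 4 times (0.135 and 0.0673 CPM), within the range of the other 16 mice. Malat1 ASO replicate 3 held 1249 nuclei of deposited cluster 16, led by Gabra6, a GABA-A receptor subunit of cerebellar granule cells, and Fat2, while the other 7 mice held 23 to 67. Both mice of batch 4 were the lowest of their group in Malat1 in every label. Values without single batches are given beside Malat1 in each label, and values without cluster 16 beside Malat1 and Zic1 in neurons and beside Malat1 over all nuclei.

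The first question was whether the oligonucleotide on its own lowered Malat1 in the brain. Over all nuclei Malat1 was not detectably different from saline, at 6.55% ± 1.35 of UMIs (SD, n = 4) against 6.85% ± 1.56 (SD, n = 4). Single saline mice held 8.09%, 6.85%, 7.81% and 4.65% in replicates 1 to 4, and the Malat1 ASO mice held 7.30%, 6.71%, 7.60% and 4.60%. The groups overlapped almost fully, and the raw share was the lower one in the treated mouse of all 4 batches by less than the spread between batches; after normalisation it was lower in 2 of 4. In the fit with batch as a block, Malat1 stood at 97.0% of saline with a 95% interval of 88.5% to 106% (log2 difference -0.04, SE 0.06, adjusted p = 0.9999 by edgeR's quasi-likelihood test). The width of that interval rests on the block and the batches, since the SE was 0.10 without replicate 4, 0.12 with all 17 mice and 0.19 without the block. Without replicate 1 the log2 difference was 0.0018, and without cluster 16 it was -0.04. Without replicate 4 it was -0.06.

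**Figure D1:**
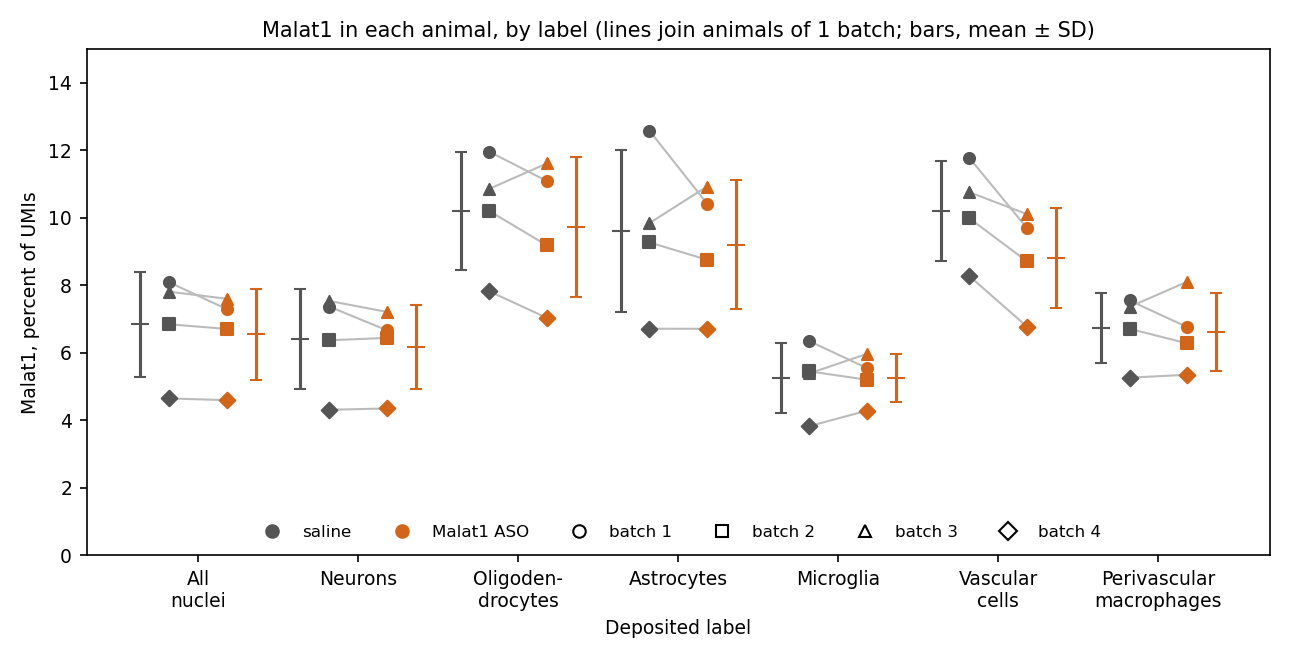
Malat1 as percent of UMIs (y axis) in each mouse by deposited label (x axis), saline in grey and Malat1 ASO in orange, with a symbol for each batch, lines joining the mice of 1 batch and bars for the mean ± SD of 4 mice. Grey and orange points overlap in every column; among vascular cells all 4 lines fall, from a mean of 10.2% to 8.82%.

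Neurons, the largest label with 87919 nuclei, gave the same picture. Saline mice held 7.37%, 6.37%, 7.54% and 4.31% Malat1, and Malat1 ASO mice 6.67%, 6.44%, 7.21% and 4.35%. The treated mouse was lower in 2 of 4 batches, and Malat1 stood at 97.5% of saline (95% interval 88.6% to 107%). The log2 difference in neurons was -0.04, and it was 0.018 without replicate 1, -0.05 without replicate 4 and -0.03 without cluster 16.

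Among the glia, oligodendrocytes, which make myelin, held 11.96%, 10.2%, 10.9% and 7.83% Malat1 in saline mice and 11.1%, 9.19%, 11.6% and 7.04% in treated mice. The treated mouse was lower in 3 of 4 batches, and the estimate was 94.4% of saline (83.8% to 106%). Astrocytes, whose end feet line the capillaries, held 12.6%, 9.27%, 9.85% and 6.72% in saline mice and 10.4%, 8.76%, 10.9% and 6.71% in treated mice, an estimate of 97.1% (85.0% to 111%). In both labels the treated mouse of batch 3 was above its saline partner, and the groups overlapped. Without batch 3 the log2 difference in oligodendrocytes was -0.16 (SE 0.05, unadjusted p = 0.00409 and adjusted p = 0.9997 by edgeR) against -0.08 with all 4 batches, and it was -0.06, -0.07 and -0.05 without batches 1, 2 and 4. In astrocytes it was 0.05, -0.03, -0.14 and -0.05 without batches 1 to 4 in turn, the third with an unadjusted p of 0.00491 and an adjusted p of 0.9999 by edgeR.

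Immune cells of the brain did not show a lower level either. Microglia, the resident macrophages, held 6.35%, 5.45%, 5.39% and 3.83% in saline mice and 5.55%, 5.203%, 5.97% and 4.29% in treated mice, an estimate of 101% of saline (94.4% to 109%). Perivascular macrophages, which sit between vessel and brain tissue and take up blood-borne material, held 7.55%, 6.72%, 7.36% and 5.27% against 6.77%, 6.28%, 8.11% and 5.35%, an estimate of 101% (87.0% to 117%). That label held 273 nuclei in all, and its interval was the widest of the 6 labels. Without batches 1 to 4 in turn the log2 difference was 0.09, 0.05, -0.03 and -0.04 in microglia and 0.05, 0.05, -0.06 and -0.02 in perivascular macrophages.

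Vascular cells were the exception in size. Their Malat1 was 8.82% ± 1.49 (SD, n = 4) in treated mice against 10.2% ± 1.48 (SD, n = 4) in saline mice. Saline replicates 1 to 4 held 11.8%, 9.99%, 10.8% and 8.27%, and the Malat1 ASO replicates 9.69%, 8.71%, 10.1% and 6.78%. The treated mouse was lower in all 4 batches, though only Malat1 ASO replicate 4 lay below every saline mouse. The fit gave 83.5% of saline (95% interval 74.9% to 92.9%, log2 difference -0.26, SE 0.07). By edgeR the unadjusted p was 0.00252 and the adjusted p 0.325. That adjustment covers all genes tested in the label, and after it Malat1 did not pass the threshold of 0.05. An adjustment of Malat1 over the labels alone was not made.

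The adjusted p for Malat1 in vascular cells ranged from 0.00678 to 1 over the alternatives. It passed in 1 of them, the fit without batch 3 (log2 difference -0.30). It did not pass without batch 1 (-0.23), batch 2 (-0.26) or batch 4 (-0.21), nor without the block (adjusted p = 0.957, SE 0.19), with all 17 mice (0.929) or in DESeq2 (1). An exact two-sided test on pair differences within batches gave p = 0.125, the smallest that 4 pairs allow. Set against the neurons of the same mouse, the vascular log2 ratio differed by a mean of -0.17, lower in the treated mouse in 4 of 4 batches, with exact p = 0.125 within batches and 0.114 unpaired (0.625 and 0.571 adjusted over 5 labels). As 0.125 is the smallest p that 4 pairs allow, no difference of any size could have passed within batches. Whether the change in vascular cells differed from that in neurons was therefore not decided.

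**Figure D2:**
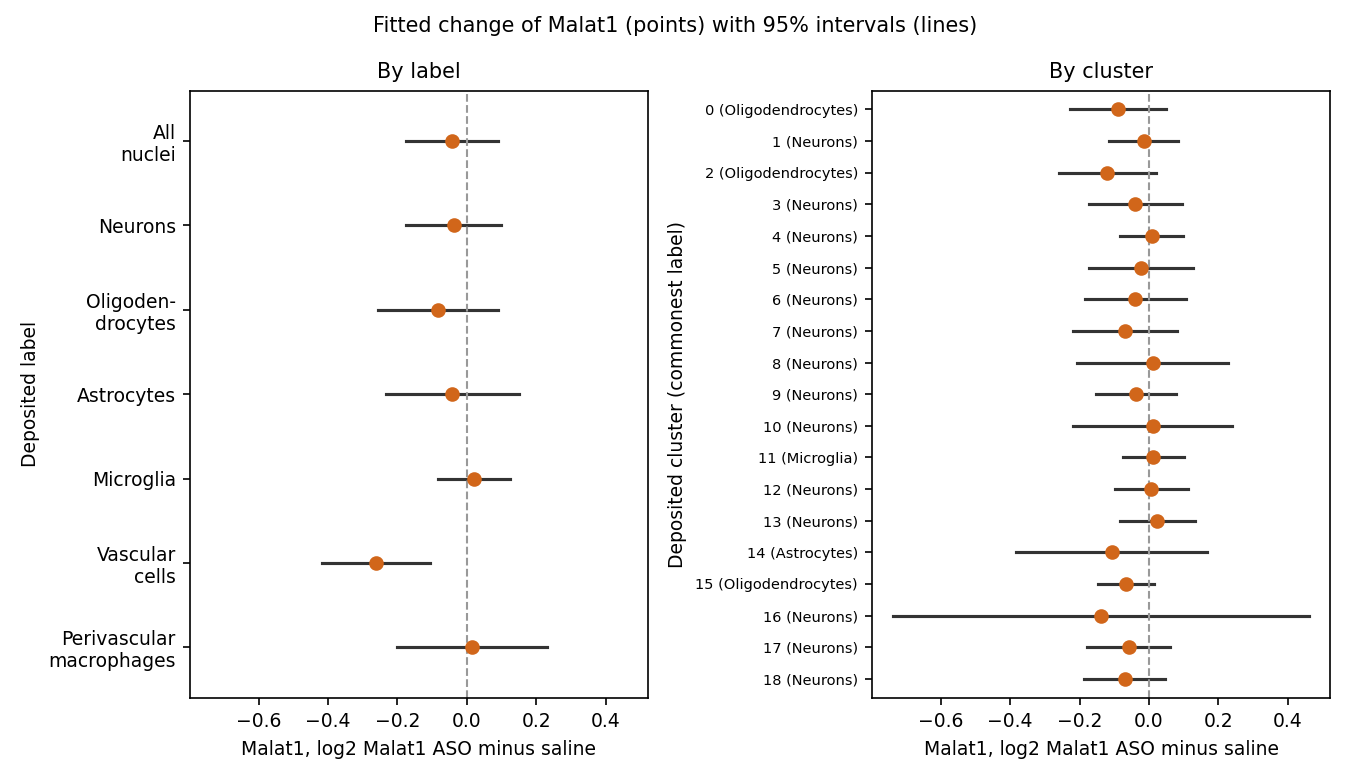
Fitted log2 difference of Malat1, Malat1 ASO minus saline (x axis; points), with 95% intervals (lines), by deposited label on the left and by deposited cluster with its commonest label on the right. The vascular interval, -0.42 to -0.11, is the one label interval that does not cross 0, and all 19 cluster intervals cross 0.

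The vascular label mixes cell types, so its nuclei were divided by the marker list with the most UMIs: endothelial (vessel lining), mural (pericytes and smooth muscle) or fibroblast-like. Nuclei led by none of the lists, 28 in saline and 11 in treated mice, were 8.52% and 3.95% of the label by the means, lower in all 4 treated mice than in any saline mouse (exact p = 0.125 within batches and 0.0286 unpaired, the smallest that either allows), and were not analysed for Malat1. Nuclei led by the endothelial list, 61 in saline and 40 in treated mice, held 6.77%, 8.08%, 7.78% and 5.94% Malat1 in saline replicates 1 to 4 and 5.33%, 4.36%, 6.48% and 4.45% in Malat1 ASO replicates 1 to 4. All 4 treated mice were below their partner, and 3 of them below every saline mouse. The mean log2 difference was -0.48, with exact p = 0.125 within batches and exact p = 0.0571 unpaired, and each mouse contributed only 6 to 20 nuclei.

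Mural-led nuclei held 13.96%, 11.9%, 14.6% and 10.3% Malat1 in saline mice and 11.03%, 11.02%, 12.9% and 9.44% in treated mice (mean log2 difference -0.19, exact p = 0.125 within batches and 0.2 unpaired). Fibroblast-like nuclei held 11.3%, 9.92%, 11.2% and 9.12% against 9.48%, 8.36%, 10.2% and 6.44% (mean log2 difference -0.28, exact p = 0.125 and 0.143). In both classes the treated mouse was the lower one in all 4 batches, so that the direction was shared by the 3 kinds of vascular nuclei. Leaving out 1 batch moved the endothelial-led value between -0.55 and -0.34, the mural-led value between -0.21 and -0.14 and the fibroblast-like value between -0.34 and -0.21. Endothelial-led nuclei, the class lowest in Malat1, were fewer per 10000 nuclei in all 4 treated mice, as given further on. As a share of the vascular label they were 9.24%, 16.9%, 25.3% and 23.5% in saline mice and 8.14%, 10.2%, 15.4% and 28.3% in treated mice, lower in 3 of 4 batches (exact p = 0.375).

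Each nucleus was then thinned to 500 UMIs. Nuclei below the 10th percentile of saline nuclei of the same label were counted as low in Malat1. Their share rises with a loss in a minority of nuclei and with a fall shared by all, so it cannot tell these apart. Among vascular nuclei this share was 4.20%, 9.23%, 5.06% and 21.0% in saline mice and 13.95%, 15.3%, 16.7% and 41.5% in treated mice. It was the higher one in the treated mouse of all 4 batches (means 9.87% and 21.8%, exact p = 0.125 within batches, 0.729 adjusted over 7 classes). Median Malat1 counts of the thinned vascular nuclei were 61, 52, 49 and 43 UMIs in saline mice. In treated mice these medians were 49.5, 44, 56 and 34 UMIs. Among perivascular macrophages the low-Malat1 share was 2.86%, 5.13%, 8.82% and 21.4% against 20.6%, 25.0%, 7.90% and 21.7%, higher in 3 of 4 batches (exact p = 0.375 within batches, 0.729 adjusted).

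In the other classes the low-Malat1 share was highest in batch 4. Among oligodendrocytes it was 1.86%, 5.39%, 3.28% and 25.9% in saline mice and 3.12%, 10.6%, 1.92% and 37.2% in treated mice, higher in 3 of 4 batches (means 9.10% and 13.2%, exact p = 0.375 within batches, 0.729 adjusted). Neurons low in Malat1 made up 24.6% and 21.9% in the 2 mice of batch 4 but 2.71% to 6.47% in the other 6. Microglia low in Malat1 made up 26.9% in saline replicate 4 and 13.2% in Malat1 ASO replicate 4, against 1.13% to 5.39% in the other mice. Over all nuclei the group means were 9.52% in saline and 9.71% in treated mice.

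**Figure D3:**
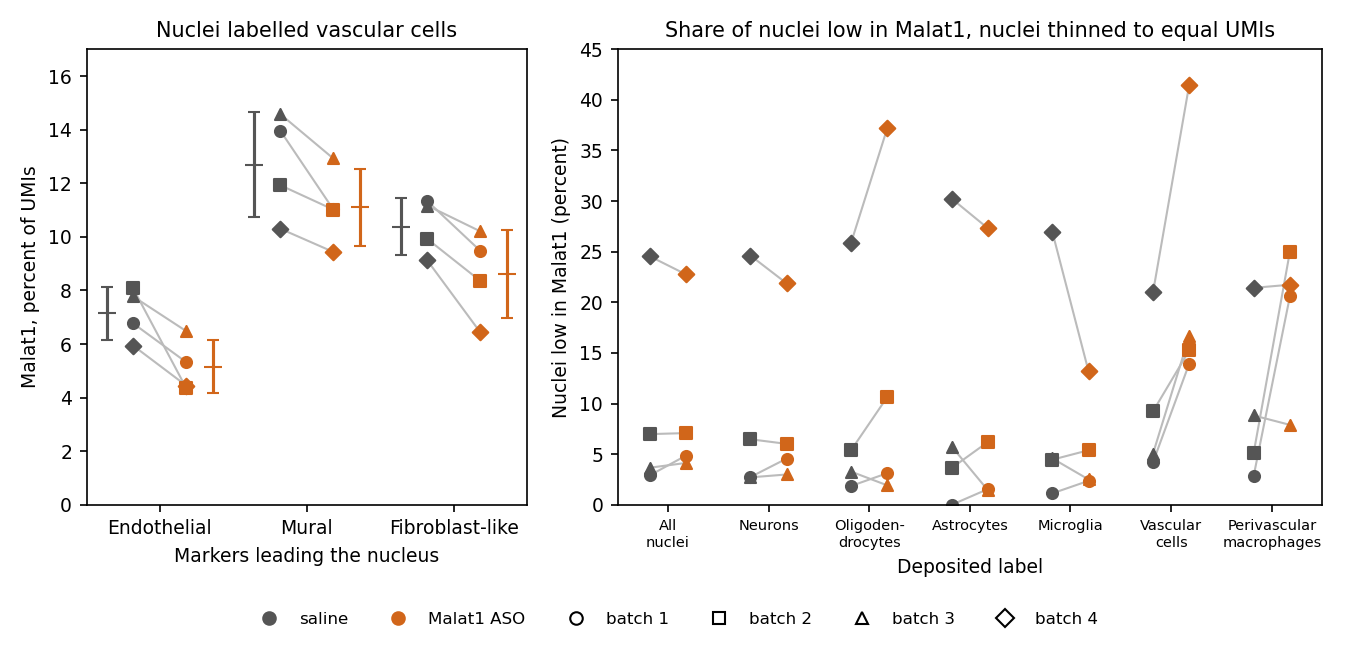
Left, Malat1 as percent of UMIs (y axis) in vascular nuclei by the marker list that led them (x axis), with bars for the mean ± SD of 4 mice; right, percent of nuclei low in Malat1 (y axis) by label (x axis); points are mice, symbols batches and lines join the mice of 1 batch. All lines on the left fall, and on the right the vascular column is the one where all 4 lines rise, from a mean of 9.87% to 21.8%.

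Kinds of neuron and glia within a label were followed through the deposited clusters, 19 of which held at least 20 nuclei in every mouse. Malat1 passed in 0 of the 19 by edgeR (0 at an unadjusted p under 0.05, every value 0.923 when adjusted over the clusters). The log2 differences ran from -0.138 in cluster 16 to 0.0245 in cluster 13. Oligodendrocyte clusters 0, 2 and 15 stood at -0.09, -0.12 and -0.07, and the microglial cluster 11 at 0.01.

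Conjugated oligonucleotide gave other values in the same tissue. Its labelled dose of 50 mg/kg refers to the whole conjugate, and by the series' design the 2 mg/kg of free oligonucleotide was the equivalent in oligonucleotide; the amounts themselves were not analysed here. In one fit of all 17 mice, which share the saline controls, Malat1 in oligodendrocytes was 9.73% with the free oligonucleotide and 1.67% ± 0.205 (SD, n = 3) with OTV:Malat1, a log2 difference of 2.64 (adjusted p = 7.3e-10, edgeR). It differed from OTV:Malat1 also in astrocytes (1.51), microglia (0.67) and perivascular macrophages (0.80, a call lost without the block, adjusted p = 0.0762). The threshold was not passed in neurons (0.59, unadjusted p = 0.000502 and adjusted p = 0.997 by edgeR). Nor was it passed in vascular cells (0.12, unadjusted p = 0.419 and adjusted p = 0.985 by edgeR). Against anti-TfR:Malat1, which held 6.97% in oligodendrocytes and 6.17% in astrocytes, no class passed after adjustment over all genes tested. The log2 differences in these labels were 0.49 and 0.56 (unadjusted p = 7.4e-05 and 1.3e-05, adjusted p = 0.9998 and 0.112 by edgeR). Astrocytes did pass without the authors' doublets (0.58, adjusted p = 0.0371). In vascular cells the free oligonucleotide (8.82%) and the conjugates (8.14% and 7.65%) all stood below saline (10.2%) by their means.

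The second question was whether other genes moved. By edgeR with the batch block, 0 of 20597 genes other than Malat1 passed an adjusted p of 0.05 over all nuclei, and 0 passed in each of the 6 labels, so percent called was 0 in every class. An unadjusted p under 0.05 was reached by 194 genes higher and 245 lower in treated mice over all nuclei (background 0.942% and 1.19%), 2.13% of those tested, and by 67 and 78 genes in DESeq2, which also called 0. With Malat1 itself counted, the share was 2% in neurons, 2.74% in oligodendrocytes, 3.33% in astrocytes, 4.25% in microglia, 6.89% in vascular cells and 6.12% in perivascular macrophages. With 1 batch left out the counts stayed at 0 over all nuclei and in neurons. They were 2 in oligodendrocytes without batch 2 (Polr3e and Sgk1), 2 in vascular cells without batch 2 (Tenm2 and Nrxn3), 6 and 1 in perivascular macrophages without batches 1 and 2, and 4, 1 and 1 in astrocytes without batches 1, 3 and 4. The genes named next are those with the smallest unadjusted p and 1 direction in 4 of 4 batches, given as values that did not pass.

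Over all nuclei Homer1, a postsynaptic scaffold gene induced by neuronal activity, was at 379, 340, 192 and 470 CPM in saline mice and 355, 272, 172 and 335 CPM in treated mice (log2 difference -0.25, SE 0.06). Tiparp, a mono-ADP-ribosyltransferase gene, was at 48.5, 42.0, 20.4 and 50.4 CPM against 47.4, 35.4, 15.99 and 37.7 CPM (-0.25). Both were lowest in the mice of batch 3, and the groups overlapped. Gm47423, an antisense transcript, differed by -0.25, and Gm49906, Cpne7 and Plch1 by 0.29, 0.21 and 0.23. Tfrc, the mouse transferrin receptor gene, was at 24.2, 25.7, 20.9 and 25.4 CPM in saline mice and 22.1, 22.8, 18.6 and 23.9 CPM in treated mice (-0.12, unadjusted p = 0.0427 by edgeR). Neat1, the neighbouring nuclear RNA that builds paraspeckles, differed by 0.00.

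Homer1 belongs to the immediate early genes, which cells induce within minutes of stimulation. Of the 20 members, 19 had a log2 difference below 0 over all nuclei, with a median of -0.22 against 0.00 for all genes tested. None passed, 5 reached an unadjusted p under 0.05 in that direction (background 1.19%), and only 2 were lower in 4 of 4 batches (background 4.65%). Fosb was at -0.38 and Dusp1 at -0.31, each lower in 3 of 4 batches, while Egr1 was at 22.9, 44.2, 46.8 and 34.9 CPM in saline mice and 43.2, 32.8, 27.4 and 45.7 CPM in treated mice (0.04). Egr1 was thus higher in 2 treated mice and lower in the other 2. The median was -0.23 in neurons (19 of 20 below 0), -0.19 in oligodendrocytes (14 of 17) and -0.23 in microglia (5 of 6). In astrocytes 2 members were tested, 1 of them below 0 (median -0.04).

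**Figure D4:**
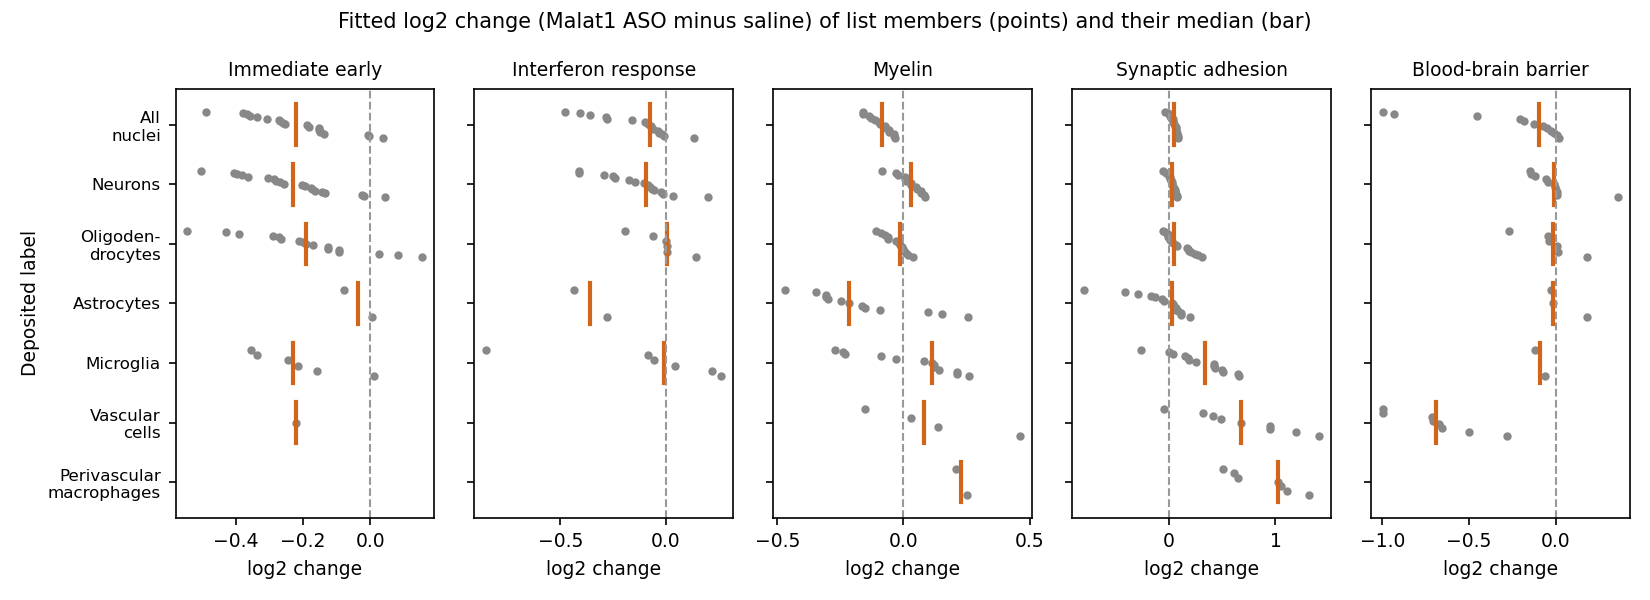
Fitted log2 difference, Malat1 ASO minus saline (x axis), of each tested member of 5 gene lists (points) and their median (bar), by deposited label (y axis); a row with no point had no member tested. Of the immediate early genes 19 of 20 lie left of 0 over all nuclei (median -0.22), and of the blood-brain barrier genes 8 of 8 in vascular cells (median -0.69). Of the tested synaptic adhesion genes 12 of 14 lie right of 0 in microglia, 8 of 9 in vascular cells and 7 of 7 in perivascular macrophages. That list has 18 members and the blood-brain barrier list 12. The filter on low counts can keep a gene through the group where that gene is higher.

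Lists tied to the oligonucleotide itself lay near 0 over all nuclei. The 16 tested neighbours of Malat1 on chromosome 19 had a median of 0.00, and the 14 genes of RNase H and nuclear RNA decay a median of 0.01, with Xrn1, an exonuclease gene, at 0.00. Median log2 differences were -0.01 for 14 paraspeckle protein genes, -0.02 for 21 speckle and SR splicing factor genes and -0.02 for 13 uptake receptor genes. Intracellular nucleic acid sensors were at a median of -0.04 (8 of 11 below 0). Interferon response genes, which such sensors can induce, were at a median of -0.08 with 15 of 16 below 0, 1 of them at an unadjusted p under 0.05 (background 1.19%). Targets of p53 (0.01), lysosomal genes (0.01), clock genes (0.00) and glucocorticoid-induced genes (-0.03) were near 0. Heat shock and unfolded protein genes stood at -0.07 (12 of 16 below 0) and reactive glia genes at -0.07 (9 of 14 below 0), each with 1 member lower at an unadjusted p under 0.05. Blood-brain barrier genes stood at -0.10 (10 of 12 below 0, 3 lower at that p), and the resting and activated microglial lists were at -0.02 and -0.03. No member of these lists passed. The long noncoding RNA list had a median of -0.01, and its extreme, Xist at -0.89 (SE 1.23), came from Malat1 ASO replicate 1, since the treated mouse was above its partner in the other 3 batches.

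In neurons Zic1, a transcription factor gene of cerebellar and midline neurons, was at 8.16, 9.67, 9.92 and 6.59 CPM in saline mice and 10.6, 10.7, 14.3 and 11.05 CPM in treated mice (0.46, adjusted p = 1 by edgeR). All treated mice were above all saline mice. The highest was Malat1 ASO replicate 3, the mouse with the many cluster 16 nuclei. Without cluster 16 that mouse stood at 9.01 CPM, below its saline partner at 9.84 CPM, and the log2 difference was 0.29 (adjusted p = 0.9998), higher in 3 of 4 batches. Pde1c, a phosphodiesterase gene, differed by 0.22, and by 0.16 without cluster 16, where Malat1 ASO replicate 3 went from 65.9 to 54.0 CPM against 54.9 CPM in its saline partner. Gm49906 differed by 0.27, and Gm47423, Tiparp and Gm35166 by -0.28, -0.31 and -0.29. Synaptic adhesion genes had a median of 0.03 in neurons.

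In oligodendrocytes the 3 smallest p-values on the higher side were those of Car10, Kcnd2 and Rbfox1. Car10 was at 22.1, 23.2, 24.5 and 35.7 CPM in saline mice and 26.8, 34.4, 35.0 and 50.8 CPM in treated mice (0.46), Kcnd2, a potassium channel gene, differed by 0.37 and Rbfox1, a neuronal splicing factor gene, by 0.43. Each was highest in the treated mouse of batch 4. The summed level of the 5 neuron markers in oligodendrocytes was 607, 807, 956 and 984 CPM in saline mice and 617, 846, 906 and 1495 CPM in treated mice, and its part in these values was not tested. Gm1992, Mpp7 and Gm26936 differed by -0.40, -0.42 and -0.25. Myelin genes were at a median of -0.01 in oligodendrocytes, while over all nuclei 14 of 14 lay below 0 (median -0.08); the oligodendrocyte share of nuclei is given at the end, and its part in this was not tested.

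In astrocytes Dscam, a cell adhesion gene, was at 65.2, 271, 195 and 228 CPM in saline mice and 54.6, 138, 110 and 106 CPM in treated mice (-0.80, SE 0.15, adjusted p = 0.0579 by edgeR). All treated mice were below their partner, and saline replicate 1 stood with the treated mice. It passed in 4 alternatives, among them nuclei of 1000 or more UMIs and the fit without batch 1, each time with Pcdh15. The 4 markers of oligodendrocyte precursors summed to 76.3, 210, 149 and 140 CPM in these astrocytes of saline mice and to 66.4, 156, 115 and 111 CPM in those of treated mice, lower in 4 of 4 batches, and their part was not tested. Tshz2 and Miga1 differed by -0.68 and -0.80, and March6, Ikbip and Wdr48 by 0.49, 0.96 and 0.86.

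In vascular cells no gene passed, and those with the smallest p-values follow. Adgrl4, an endothelial adhesion receptor gene, was at 205, 486, 579 and 860 CPM in saline mice and 49.3, 118, 358 and 420 CPM in treated mice (-1.31, adjusted p = 0.0811 by edgeR). Slco1a4, an organic anion transporter gene of brain endothelium, was at 269, 793, 1530 and 1301 CPM against 148, 294, 813 and 807 CPM (-0.996, adjusted p = 0.0811). Both were lower in every treated mouse than in its partner, with overlap between the groups, and Ptprb, an endothelial phosphatase gene, differed by -1.27.

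Of the 12 listed blood-brain barrier genes 8 were tested in vascular cells. The filter on low counts left out the others, and it can keep a gene through the group where that gene is higher. All 8 were below 0, at a median of -0.69 against -0.01 for all genes tested. None passed, 6 reached an unadjusted p under 0.05 (background 3.7%) and 2 were lower in 4 of 4 batches (background 7.49%). The 7 endothelial markers, none of them at 0, summed to 1111, 4047, 4828 and 5486 CPM in the vascular label of saline mice and to 1011, 1528, 3322 and 3966 CPM in treated mice. The fibroblast-like list summed to 2549, 2331, 2223 and 1668 CPM against 3494, 2777, 2981 and 1966 CPM, higher in 4 of 4 batches. The haemoglobin markers reached 2255 CPM in saline replicate 4 and at most 93.0 CPM in the other mice. How far the make-up of the label set the values of its genes was not tested.

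Endothelial signal was lower over all nuclei too. These values include the vascular label, and endothelial-led nuclei are named by the same markers, so they are not separate observations. The 7 endothelial markers summed to 9.84, 11.99, 14.8 and 16.4 CPM in saline mice and to 7.29, 7.27, 12.1 and 10.1 CPM in treated mice, lower in all 4 batches (mean log2 difference -0.49). All 7 had a log2 difference below 0, 5 of them lower in 4 of 4 batches (background 4.65%), and none passed. Flt1, a VEGF receptor gene, was at 2.24, 2.36, 2.94 and 3.60 CPM against 1.78, 1.44, 2.57 and 2.58 CPM (-0.41), and Mecom at 2.79, 2.21, 2.86 and 3.64 CPM against 1.46, 2.06, 1.91 and 1.69 CPM (-0.66). Pecam1, an adhesion molecule of the same cells, differed by -0.07. The endothelial-led nuclei numbered 7.26, 6.45, 11.4 and 12.3 per 10000 nuclei in saline mice and 4.64, 3.59, 6.80 and 9.32 in treated mice (exact p = 0.125 within batches and 0.171 unpaired).

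On the higher side in vascular cells, Slc4a10, a bicarbonate transporter gene, was at 357, 813, 693 and 409 CPM in saline mice and 962, 1616, 1136 and 1143 CPM in treated mice (1.09, adjusted p = 0.0811 by edgeR). Ctnnd2, a neuronal catenin gene, was at 35.1, 99.2, 165 and 136 CPM against 140, 367, 358 and 319 CPM (1.43, adjusted p = 0.0811). For Slc4a10 every treated mouse was above every saline mouse. Nrxn3, a presynaptic adhesion gene, was at 123, 178, 82.7 and 231 CPM against 247, 235, 332 and 1075 CPM (1.41), the last of these in the treated mouse of batch 4.

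In labels with few nuclei the filter on low counts left out part of the 18 synaptic adhesion genes. It can keep a gene through the group where that gene is higher. Of the members tested, none passed in any label. Their median log2 difference was 0.68 in vascular cells (8 of 9 above 0, 4 at an unadjusted p under 0.05, background 3.19%), 1.03 in perivascular macrophages (7 of 7, 4, background 4.3%) and 0.33 in microglia (12 of 14, 6, background 2.63%), against 0.05 over all nuclei. In oligodendrocytes it was 0.05 (13 of 18 above 0, 5 higher at an unadjusted p under 0.05, background 1.9%), and in astrocytes 0.03 (9 of 16 above 0, 2 lower at an unadjusted p under 0.05, background 1.72%). The neuron markers summed to 871, 1279, 1313 and 1846 CPM in vascular cells of saline mice and to 1299, 1146, 1766 and 2084 CPM in those of treated mice. In perivascular macrophages they summed to 1455, 1093, 2380 and 1494 CPM against 2461, 985, 2699 and 2027 CPM, and in microglia to 811, 1126, 1231 and 1278 CPM against 769, 1129, 1253 and 2065 CPM. These sums were higher in the treated mouse in 3 of 4 batches in each label, though in microglia of batches 2 and 3 by little (1126 against 1129 and 1231 against 1253 CPM). In microglia the 3 excitatory neuron markers were lower in the treated mouse in 3 of 4 batches and higher in batch 4. They summed to 74.8, 70.7, 118 and 86.7 CPM in saline mice and 52.1, 39.3, 97.4 and 114 CPM in treated mice. The part of neuronal RNA in the synaptic genes was not tested.

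In perivascular macrophages Lrrc4c and Ptprd, both genes of synaptic contacts, differed by 1.3 and 1.31 (adjusted p = 0.114 and 0.147 by edgeR). Ptprd was at 1402, 698, 595 and 640 CPM in saline mice and 2158, 1477, 3461 and 1179 CPM in treated mice. Cyth4 differed by -1.06, Arhgap22 by -1.10 and Ptprc, the CD45 gene of blood-derived cells, by -0.66. Neat1 was at 543, 558, 440 and 213 CPM against 323, 263, 293 and 189 CPM (-0.67, unadjusted p = 0.032 and adjusted p = 0.716 by edgeR), lower in all 4 batches. This label held only 21209 to 57047 UMIs in a mouse, so its CPM values rest on few counted molecules.

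Microglia gave Nrxn3 at 97.4, 142, 157 and 263 CPM in saline mice and 112, 217, 267 and 472 CPM in treated mice (0.65, adjusted p = 0.228 by edgeR), with Ralyl at 0.77 and Cadm2 at 0.42. On the lower side stood Pdpr at -0.73, Lsm4 at -1.06 and Fermt3, an integrin activator gene of blood and immune cells, at 329, 368, 336 and 313 CPM against 238, 323, 255 and 234 CPM (-0.35). Nrxn3 was higher and Fermt3 lower in the treated mouse of every batch. Without batch 1, 6 genes passed in microglia, all higher, without batch 2 there were 6, of which 4 were higher, and without batch 4 there was 1.

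The one set with many calls was deposited cluster 11, of 5040 nuclei, 80.1% of them labelled microglia over the series. In it 124 genes rose and 2 fell at an adjusted p of 0.05 (edgeR with the batch block; percent called 1.46). Nrxn3 was at 131, 161, 210 and 316 CPM in saline mice and 232, 327, 479 and 706 CPM in treated mice (1.07, SE 0.10, adjusted p = 5.2e-08). The cell adhesion genes Pcdh9 and Opcml rose by 0.76 and 0.95, Nrg3, a neuregulin gene, by 0.75, and Meg3, a neuronal noncoding RNA, by 0.45. Fermt3 fell by 0.40 and Bloc1s2 by 0.73 on the log2 scale.

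The make-up of the cluster also differed within batches, and is described here by its values alone. Nuclei labelled neurons were 6.07%, 7.24%, 10.3% and 22.1% of cluster 11 in saline mice and 9.55%, 11.7%, 11.9% and 22.2% in treated mice. Nuclei called doublets by the authors were 0.347%, 0.258%, 0.333% and 0.356% against 1.97%, 0.769%, 2.31% and 0.654%. The neuron markers summed to 915, 1234, 1365 and 1503 CPM against 1192, 1447, 1708 and 2404 CPM, while the microglial markers ran from 4060 to 4832 CPM (mean log2 difference 0.02). Each of the neuronal measures was higher in the treated mouse of all 4 batches, and their part in the 126 calls was not tested. The count was 0 without the block and 0 with all 17 mice, 38 without the authors' doublets, and 40 in DESeq2 with the block, all 40 of them among the 126. Leaving out 1 batch gave 65 calls without batch 3, 87 without batch 1, 108 without batch 4 and 171 without batch 2, and without batch 1, which held the mouse low in Xist, 76 of the 87 were among the 126. In nuclei of the microglia label as a whole 0 genes passed.

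Clusters 2, 14 and 17 gave fewer calls. Cluster 2 was 83.4% labelled oligodendrocytes over the series. In it Pde10a, a striatal phosphodiesterase gene, was at 34.9, 38.9, 54.1 and 36.9 CPM in saline mice and 48.2, 73.8, 99.6 and 71.7 CPM in treated mice (0.85, adjusted p = 0.0354 by edgeR, percent called 0.00898). Cluster 17, 61.2% labelled neurons over the series, consisted mostly of nuclei that the authors had called doublets: without them 301 of its 1311 nuclei were left. The doublet share of this cluster was 69.5%, 72.1%, 72.97% and 79.7% in saline mice and 80.3%, 82.4%, 76.1% and 82.8% in treated mice, higher in 4 of 4 batches. In it 10 genes rose and 1 fell (percent called 0.119). Without the doublets no gene was called, but each mouse then held only 26 to 51 nuclei. Only 1659 genes other than Malat1 were then tested, against 9209 with the doublets. With the doublets kept, Zfp804b was at 160, 182, 152 and 175 CPM in saline mice and 277, 226, 279 and 328 CPM in treated mice (0.72, adjusted p = 0.000359 by edgeR), with no overlap. Mgat4c, Hs3st4, Cntnap4, Nrp1, Grip1, Slit3, Shisa6, Chrm3 and Cdh9 rose by 0.47 to 0.90. Gm47283 fell by 1.12 on the log2 scale, from 162, 322, 374 and 214 CPM to 0, 66.6, 231 and 287 CPM, and was higher in the treated mouse of batch 4. Over all nuclei Gm47283 was at 3.37 CPM in Malat1 ASO replicate 1, the mouse low in Xist, against 4.97 to 351 CPM in the other 16 mice. Without batch 1, and likewise without batch 2, no gene of cluster 17 passed on the lower side. In cluster 14, commonly labelled astrocytes, Gm44196, Rpgrip1 and Mylk fell (percent called 0.0305), and all 3 were highest in saline replicate 3, where Mylk, a myosin light chain kinase gene, was at 216 CPM against 20.7 to 41.7 CPM in the other saline mice. Without batches 1, 2, 3 and 4 in turn the counts were 8, 31, 0 and 5 in cluster 2, 0, 5, 1 and 11 in cluster 14, and 6, 2, 14 and 14 in cluster 17. Pde10a was called without batches 1 and 2 only. The 3 genes of cluster 14 were all called without batches 2 and 4, and none of them without batches 1 and 3. Of the 11 genes of cluster 17, 4, 2, 6 and 8 were called without batches 1 to 4 in turn. Without the block they were 0 in all 3 clusters.

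**Figure D5:**
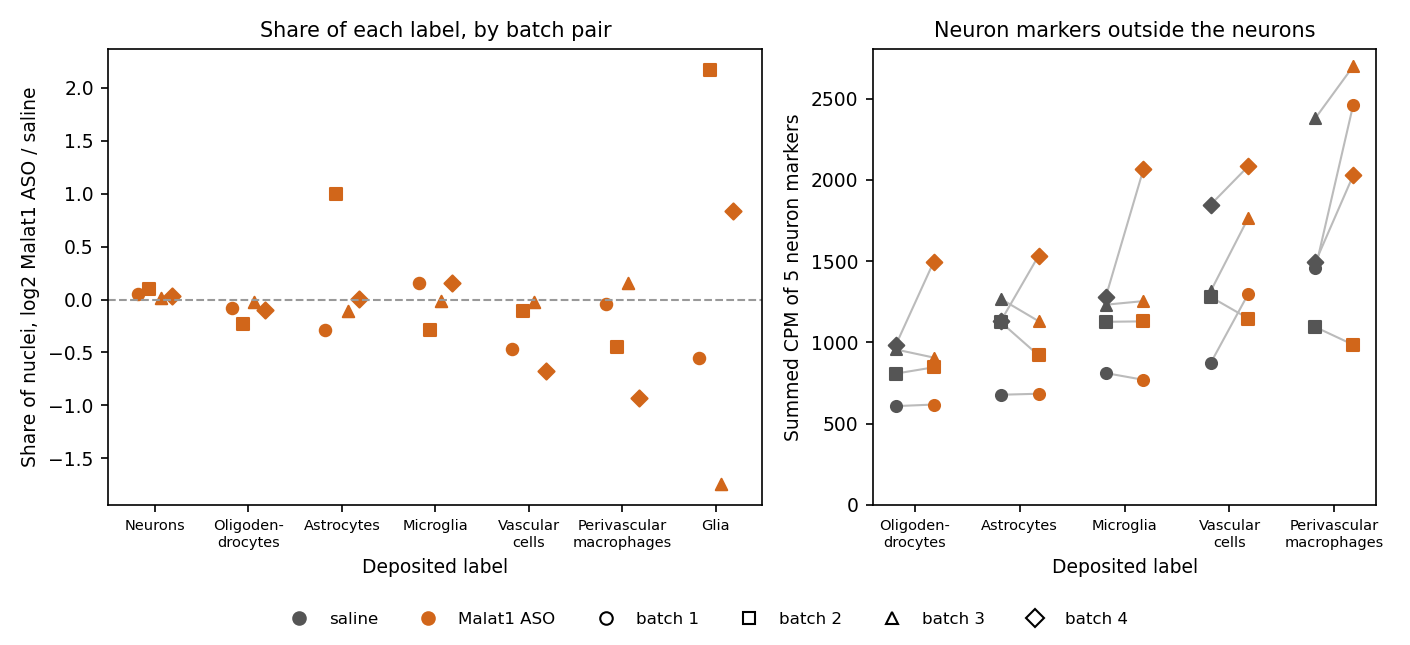
Left, log2 ratio of each label's share of nuclei, Malat1 ASO over saline (y axis), by label (x axis), 1 point a batch pair; right, summed CPM of 5 neuron markers (y axis) in labels other than neurons (x axis), saline in grey and Malat1 ASO in orange with lines joining the mice of 1 batch. All 4 points lie above 0 for neurons and below 0 for oligodendrocytes and vascular cells; the treated mouse of batch 4 is the highest of its column in 4 of the 5 columns on the right.

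Shares of nuclei were compared within batches, where the smallest exact p is 0.125 and no difference could have passed. Neurons were 58.1%, 63.3%, 72.4% and 69.9% of nuclei in saline mice and 60.4%, 67.7%, 73.0% and 71.5% in treated mice. Oligodendrocytes were 34.1%, 30.9%, 22.6% and 25.2% against 32.2%, 26.3%, 22.1% and 23.6%. Vascular cells were 0.786%, 0.381%, 0.449% and 0.525% against 0.570%, 0.353%, 0.442% and 0.329%. The treated mouse was above its partner in 4 of 4 batches for neurons and below it in 4 of 4 for the other two, each with exact p = 0.125 within batches (0.292 adjusted over 7 labels). By the means of treated and saline mice, neurons stood at 68.1% and 65.9% and vascular cells at 0.424% and 0.535%. Within batches the vascular log2 ratio ran from -0.67 to -0.02. In the same order microglia stood at 3.27% and 3.30%, astrocytes at 1.82% and 1.75%, and perivascular macrophages at 0.188% and 0.231%. Single pairs moved further in the scarce labels, with a log2 ratio of 1.00 for astrocytes in batch 2 and -0.93 for perivascular macrophages in batch 4.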

How the data were processed

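The authors deposited 1 matrix of raw UMI counts for the nuclei of all 17 mice, with a table giving each nucleus its sample, batch, cell type label, cluster (resolution 0.4) and doublet call. The deposited score of the cell type label, a fraction, was read only to check its median. Cell Ranger 6.0.1, Seurat 4 and mm10 stand in the submitters' processing notes without roles; other steps are not given in the sources used here. Of the metadata columns, 10 of 18 were not used.

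UMI counts were summed per mouse and label, and genes were kept with filterByExpr, scaled by TMM and tested with edgeR 4.0.16 (quasi-likelihood, two-sided, Benjamini-Hochberg over all genes tested, threshold 0.05) with batch as a block; DESeq2 1.42.0 was the alternative tool. Intervals are 95%. Single values were tested with exact permutation tests within batches (16 sign changes) and unpaired (70 regroupings), on log2(CPM + 1) for levels. Summed counts carry counting error and the variation between mice, which the fit estimates; labels with few nuclei (23 to 42 per mouse in perivascular macrophages) are the least precise. Gene positions are from GENCODE M21, which held 25511 of the 26131 gene names.

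The replicate number equals the deposited batch, 1 mouse of each group in each, so it was used as the pair; what the batch stands for is not given. Deviations of same-numbered mice correlated at 0.46, -0.05, 0.64 and 0.57 over all nuclei, against at most 0.09, 0.19, 0.19 and 0.01 with a mouse of another number. In vascular cells these values were 0.25, -0.14, 0.08 and 0.20 against at most 0.24, 0.24, 0.11 and 0.11. Labels and markers were taken as deposited or listed, doublets were kept and left out in an alternative, and clusters or labels with fewer than 20 nuclei in a mouse were left out. Named genes were Malat1, Neat1 and Tfrc, genes past the threshold in a label, otherwise the 3 smallest p-values a direction with 4 of 4 batches alike and a mean of 10 CPM, and the 3 most abundant members of a list; a few list members and the cluster genes were named after their values were seen. The members and gene lists were chosen with earlier results of these data known. The fits were tested on simulated data. One gene that the rule picks in a label is not reported here.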

Additional observations from a re-analysis of the deposited data

Results flagged for a closer look

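Of 184 groups of 4 mice checked for a sample far from the other 3, 16 held one. Some of the groups were chosen after their values were seen, and many share nuclei, so this count cannot be set against a chance rate. Xist over all nuclei was at 0.589 CPM in Malat1 ASO replicate 1 against 1132 to 1224 CPM in the other treated mice, and Kdm6a at 94.0 CPM against 137 to 140 CPM. Cluster 16 held 1249 nuclei in Malat1 ASO replicate 3 against 26 to 67.

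Nuclei low in Malat1 set the mice of batch 4 apart: 22.8% of all nuclei in Malat1 ASO replicate 4 against 4.13% to 7.08%, 21.9% of neurons there against 2.99% to 6.02%, and 41.5% of vascular nuclei there against 13.95% to 16.7%. In saline replicate 4 the share was 25.9% of oligodendrocytes against 1.86% to 5.39%, and 26.9% of microglia against 1.13% to 4.58%. Mural-led nuclei were 29.7 per 10000 in saline replicate 1 against 9.10 to 11.1.

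Among single genes, Tfrc in neurons was low in saline replicate 3 (21.8 CPM) and Malat1 ASO replicate 3 (19.5 CPM), and in oligodendrocytes high in saline replicate 2 (14.9 CPM). Zic1 in neurons reached 14.3 CPM in Malat1 ASO replicate 3, Car10 in oligodendrocytes 35.7 CPM in saline replicate 4, Nrxn3 in vascular cells 1075 CPM in Malat1 ASO replicate 4 and Ptprd in perivascular macrophages 1402 CPM in saline replicate 1.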

How the results depend on the processing

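With 1 batch left out, 118 values stayed the same, 20 changed sign, 21 moved and 1 passed. Under the other alternatives 256 stayed the same, 14 changed sign, 24 moved, 1 passed and 1 lost the threshold. A test stayed the same if it kept direction and side of the threshold. A count of genes called moved if it changed beyond a set fold, or to or from none. Exact tests within batches could not pass, as their smallest p was 0.125, or 0.25 with 1 batch left out. For them only the direction could change. Malat1 passed in vascular cells without batch 3 and in no other label or alternative tried there. Labels with few nuclei, low totals in vascular cells and perivascular macrophages, and 4 pairs limit the precision. All added alternatives, the cluster counts among them, were chosen after seeing the data.

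Without the filter on low counts, genes called numbered 16 in oligodendrocytes, 8 in astrocytes, 5 in microglia, 24 in vascular cells and 3 in perivascular macrophages; in astrocytes there were 2 without doublets, 2 with nuclei of 1000 or more UMIs and 4 in clusters where the label is commonest. Malat1 in perivascular macrophages changed sign to -0.139 without the filter, -0.076 without doublets and -0.0233 on the log2(CPM + 1) scale of the exact tests, with or without the block. Without the replicate block Malat1 changed sign in cluster 10 (-0.0109) and cluster 11 (-0.000199); with all 17 mice in cluster 10 (-0.00297); and without doublets in cluster 4 (-0.00632) and cluster 17 (0.132). The cause was not tested.

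Genes called in clusters 2, 11, 14 and 17 were 0, 0, 0 and 0 without the replicate block, 0, 0, 0 and 1 with all 17 mice, 0, 38, 14 and 0 without doublets and 0, 40, 1 and 0 in DESeq2. Beside the conjugates, Malat1 against OTV:Malat1 in perivascular macrophages lost the threshold without the block (0.848, adjusted p = 0.0762 by edgeR), against anti-TfR:Malat1 in astrocytes it passed without doublets (0.581, adjusted p = 0.0371), and against OTV:Malat1 in vascular cells it changed sign without doublets (-0.0100). The difference in microglial share became 0.0436 points without doublets. Low-Malat1 shares differed by -0.132 points over all nuclei at the 5th percentile, and by 0.894 in neurons and 3.33 in astrocytes at the 25th.

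With 1 batch left out, Malat1 ranged from -0.0648 to 0.00176 over all nuclei, -0.0607 to 0.0178 in neurons, -0.163 to -0.0462 in oligodendrocytes, -0.137 to 0.047 in astrocytes, -0.039 to 0.0921 in microglia, -0.0601 to 0.0497 in perivascular macrophages and -0.299 to -0.21 in vascular cells. Against neurons it ranged from -0.0996 to 0.00972 in oligodendrocytes, -0.0797 to 0.0343 in astrocytes and -0.0389 to 0.066 in perivascular macrophages. Genes called ranged from 0 to 2 in oligodendrocytes, 0 to 4 in astrocytes, 0 to 6 in microglia, 0 to 2 in vascular cells and 0 to 6 in perivascular macrophages, and from 0 to 31, 65 to 171, 0 to 11 and 2 to 14 in clusters 2, 11, 14 and 17. Shares of nuclei differed by -0.218 to 0.291 points for astrocytes, -0.0323 to 0.0284 for Glia and -0.173 to 0.218 for microglia. Low-Malat1 shares differed by -0.405 to 0.844 points over all nuclei, -0.975 to 0.551 in neurons, -1.9 to 0.398 in astrocytes and -4.97 to 0.0311 in microglia.

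Vascular cells and perivascular macrophages were the commonest label of no cluster, so that this alternative could not be run for them. With nuclei of 1000 or more UMIs, perivascular macrophages had as few as 6 in a mouse, so that this alternative and thinning to 1000 UMIs were not run for them, nor was cluster 18 without doublets (under 20 nuclei in a mouse).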
